A study of Mus musculus with 12 samples.

Results

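Tslp, Il7 and Il15 encode 3 secreted cytokines that stromal cells use to act on lymphoid and dendritic cells. They were picked by name from the 36875 gene symbols of a table of read counts, and each was found as 1 row with a count above 0 in all 12 libraries. They were grouped with their values in these libraries already known, namely their levels over the 3 groups and the differences between groups. Their values are therefore described below with no test, and only genes outside the trio carry p-values. The lists of those genes were also chosen with earlier results of these data known. Some genes were named after their values were seen. Neither the p-values nor the list counts allow for these choices.

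The libraries were made from poly(A) RNA of cultured mouse fibroblast-like synoviocytes, the connective tissue cells that line the joint, in 3 groups of 4. Homeostasis animals drank water with 5% sucrose over 3 weeks and received no doxycycline per the labels, and the sample descriptions name them WT. Inflammation animals (DOX ON) had doxycycline added to the same sucrose water at 1 mg/ml over those 3 weeks, and in resolution animals (DOX OFF) that course was ended before harvest. The protocol shared by all samples describes the mice as having arthritis induced by tumour necrosis factor (TNF), and the series asks how synoviocytes act on endothelial cells once inflammation resolves. The genotype of each group, the promoter behind any transgene, the sex and age of the animals, the culture passage and how long after withdrawal cells were taken are all details not given in the sources used here. Separate animals or cultures are nowhere stated for the 4 libraries of a group. The p-values below hence cover only how much these samples vary, and part of that may be technical.

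TSLP, thymic stromal lymphopoietin, is an alarmin of epithelial and stromal cells that signals through a pair of receptor chains, CRLF2 and IL7R, to JAK1, JAK2 and STAT5. IL-7 is a stromal survival factor for lymphocytes and their precursors, and it is read by IL7R together with the common gamma chain IL2RG through JAK1 and JAK3. IL-15 supports natural killer cells and memory CD8 T cells, and it is mostly bound by IL15RA on the producing cell and presented to neighbours that carry IL2RB and IL2RG. Synovial fibroblasts are among the stromal cells known to make these factors in inflamed joints.

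Several facts of the libraries bear on every comparison with homeostasis. Total counts ran from 18120756 to 34971549 per library. The Y-linked gene Ddx3y stood at 23.6 ± 1.82 CPM (counts scaled to library size with TMM factors; mean ± SD, n = 4) in homeostasis and summed to 3 counts in inflammation and 0 in resolution, and Xist stood at 10.8 ± 3.28, 110 ± 35.3 and 174 ± 66.9 CPM. The effect of the treatment and this difference in the source animals cannot be told apart. Tnf itself was highest in homeostasis (3.97 ± 2.20 CPM) and lowest in resolution (0.308 ± 0.143 CPM). Homeostasis 1 and 2 stood apart from homeostasis 3 and 4, as did resolution 2 from the other resolution libraries, so values with and without them are given where they matter. Fibroblast markers were abundant in every library, with 11 of 11 tested and summed levels of 28937 to 31381 CPM in homeostasis, 21293 to 24515 in inflammation and 10382 to 16049 in resolution. Against homeostasis, 1 rose (Dcn) and 6 fell in inflammation, beside 19% higher and 18.3% lower over all tested genes. In resolution 1 rose (Dcn) and 9 fell, beside 27.5% and 25.8%. Mean Col1a1 went from 9560 CPM in homeostasis to 3118 in resolution, Dcn from 161 to 897 and Pdgfra from 102 to 108. In bulk RNA, fewer cells of a type and less RNA per cell cannot be told apart.

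On the mouse build GRCm38, the annotation GENCODE M21 places Tslp at chr18:32815383-32819797 on the plus strand, Il7 at chr3:7569994-7613760 on the minus strand and Il15 at chr8:82331632-82403222 on the minus strand, each as a protein-coding gene. Tslp overlaps the non-coding gene 4930455D15Rik on the opposite strand, which had 9 counts over all 12 libraries and at most 3 in one. Il7 overlaps the antisense gene Gm16685, whose level was not analysed here. The counting may or may not have used strand, a setting not given in the sources used here. Reads of the overlapped stretches can therefore not be assigned to a strand. Il15 overlaps no other annotated gene.

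Tslp was higher in every resolution library than in any library of the other groups, and homeostasis and inflammation overlapped. Homeostasis libraries 1 to 4 held 7.61, 6.49, 10.1 and 11.8 CPM, from 150, 211, 177 and 260 counts. Inflammation libraries held 6.67, 7.29, 10.7 and 10.2 CPM, from 146, 178, 219 and 231 counts. Resolution libraries held 37.5, 36.6, 56.9 and 43.2 CPM, from 728, 784, 1254 and 934 counts. Resolution lay wholly above each other group, as it did for 21.9% of tested genes against homeostasis and 8.96% against inflammation. In each of the 3 groups libraries 1 and 2 were lower than libraries 3 and 4.

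The mean level of Tslp over homeostasis libraries was 8.99 ± 2.39 CPM, against 8.72 ± 2.04 for inflammation and 43.6 ± 9.37 for resolution. The log2 fold change of resolution was 2.28 ± 0.21 (SE) against homeostasis, a 4.86-fold difference, and 2.32 ± 0.21 against inflammation. Inflammation differed from homeostasis by -0.04 ± 0.21 on the log2 scale, and the sign of that value changed with the setting (0.31 against homeostasis 1 and 2 alone, -0.31 against homeostasis 3 and 4 alone). With offsets for GC content and transcript length it was -0.59, and resolution against homeostasis was 1.48. Among the 15050 genes that passed the expression filter, 0.266% had a larger log2 fold change than Tslp in resolution against inflammation, and 2.41% did in resolution against homeostasis. Its pattern, with resolution above all other libraries and the other groups overlapping, was shared by 2.76% of tested genes.

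**Figure D1:**
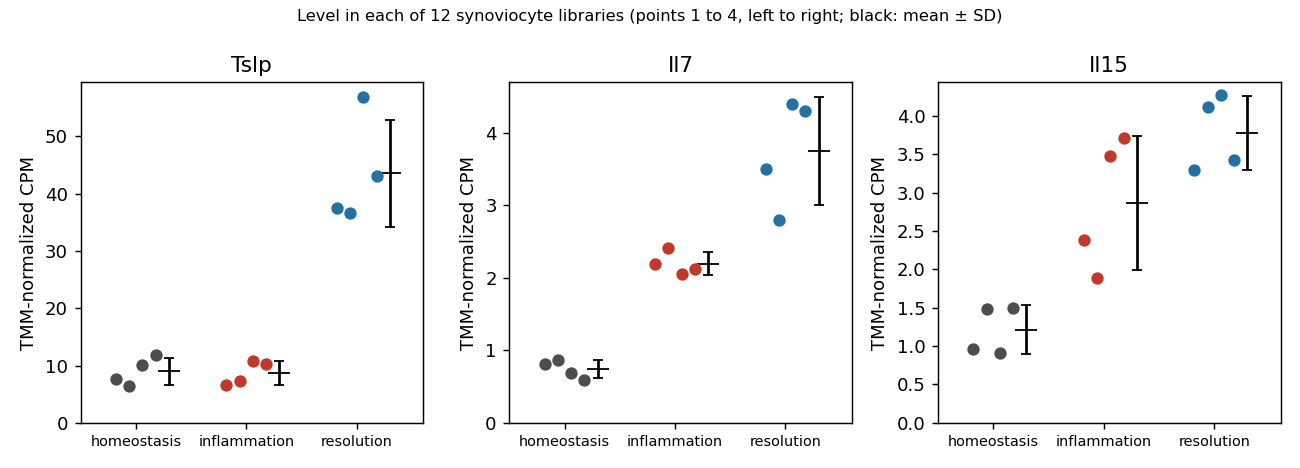
Level of each cytokine gene in each library, in TMM-normalized CPM on a linear axis from 0. Points are libraries 1 to 4 of a group from left to right, and the black bar is the mean ± SD (n = 4). Tslp is set apart in resolution alone (36.6 to 56.9 CPM), Il7 takes 3 separate levels, and Il15 overlaps between inflammation (1.88 to 3.71 CPM) and resolution (3.30 to 4.27 CPM).

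Il7 was lowest in homeostasis, intermediate in inflammation and highest in resolution. Homeostasis libraries held 0.812, 0.862, 0.684 and 0.589 CPM, from 16, 28, 12 and 13 counts. Inflammation libraries held 2.19, 2.42, 2.06 and 2.12 CPM, from 48, 59, 42 and 48 counts. Resolution libraries held 3.51, 2.80, 4.40 and 4.30 CPM, from 68, 60, 97 and 93 counts. No group overlapped another (18.1% of tested genes lay wholly higher in inflammation than in homeostasis), and the lowest resolution value, in library 2, was still above the highest inflammation value.

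Mean levels of Il7 were 0.737 ± 0.124, 2.20 ± 0.156 and 3.75 ± 0.749 CPM in that order. The log2 fold change was 1.56 ± 0.26 for inflammation against homeostasis, 2.33 ± 0.25 for resolution against homeostasis and 0.77 ± 0.23 for resolution against inflammation, or 2.94-, 5.02- and 1.71-fold. Without resolution 2 the last value was 0.89. A steady order of 3 groups that do not overlap, from homeostasis up to resolution, was found for 3.16% of tested genes. The inflammation libraries were closer to each other in Il7 (coefficient of variation 7.10%) than counting error alone would give for their depth (14.2%).

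Il15 was higher in both doxycycline groups than in homeostasis. Homeostasis libraries held 0.965, 1.48, 0.912 and 1.50 CPM, from 19, 48, 16 and 33 counts. Inflammation libraries held 2.38, 1.88, 3.48 and 3.71 CPM, from 52, 46, 71 and 84 counts. Resolution libraries held 3.30, 4.11, 4.27 and 3.42 CPM, from 64, 88, 94 and 74 counts. All 8 libraries of the doxycycline groups lay above the 4 of homeostasis. Between the doxycycline groups the values overlapped, with inflammation 3 and 4 inside the resolution range and inflammation 1 and 2 below it.

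The means of Il15 were 1.21 ± 0.317, 2.86 ± 0.875 and 3.77 ± 0.485 CPM. The log2 fold change was 1.21 ± 0.27 for inflammation and 1.61 ± 0.27 for resolution, each against homeostasis, and 0.40 ± 0.25 for resolution against inflammation. Leaving out 1 library at a time moved the last value between 0.23 and 0.55. A pattern of this kind, with both doxycycline groups above homeostasis and overlapping with each other, was seen in 10.2% of tested genes.

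The 3 genes differed in how far they exceeded homeostasis before and after withdrawal. In inflammation against homeostasis, Tslp ranked 7833 from the top of the 15050 tested genes by log2 fold change, Il7 ranked 643 and Il15 ranked 1063. In resolution against homeostasis the ranks were 363, 343 and 902. In resolution against inflammation they were 41 for Tslp, 895 for Il7 and 3214 for Il15. The comparisons share their control libraries, so these ranks are not independent of each other.

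Levels can be set side by side between genes only per length. Per kilobase of exon sequence, Tslp levels were 6.76 ± 1.79, 6.55 ± 1.53 and 32.7 ± 7.04 CPM, the groups taken in the same order. Il15 stood at 0.536 ± 0.140, 1.27 ± 0.387 and 1.67 ± 0.215 CPM per kilobase, and Il7 at 0.130 ± 0.0219, 0.388 ± 0.0275 and 0.662 ± 0.132. The order Tslp, Il15, Il7 was the same in every group and also with the length of the longest transcript. Tslp made up 90.6 ± 3.34% of the length-scaled sum of the 3 genes in homeostasis, 79.8 ± 1.66% in inflammation and 93.2 ± 0.784% in resolution. The share of Il15 was 7.53 ± 2.78%, 15.3 ± 2.03% and 4.86 ± 0.871%, and that of Il7 was 1.88 ± 0.727%, 4.96 ± 1.40% and 1.90 ± 0.256%. Il15 and Il7 thus both took their highest share in inflammation although their levels were highest in resolution, where Tslp rose.

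Counting error was a large part of the spread for Il7 and Il15 in homeostasis and a small part for Tslp. For Il7, the coefficient of variation over homeostasis libraries was 16.8%, against 24.1% from counting alone, and for Il15 it was 26.2% against 18.6%. For Tslp it was 26.6% against 7.08%. Over the 12 libraries, deviations from the group means correlated between genes of the trio at a Pearson r of -0.17 (Tslp and Il7), 0.45 (Tslp and Il15) and -0.24 (Il7 and Il15), given as descriptions. At the mean level over all libraries, 50.6% of tested genes were above Tslp, 80.5% above Il7 and 78.2% above Il15.

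The fold changes of Tslp and Il7 moved when base composition and transcript length were modelled. Their longest transcripts hold 40.3% and 39.0% G and C, Il15 holds 49.6%, and the median of 13629 tested genes was 49.7%. With offsets for GC content and length, Tslp stood at -0.59 for inflammation and 1.48 for resolution, each against homeostasis on the log2 scale, and at 2.07 for resolution against inflammation. Il7 stood at 1.14, 1.60 and 0.45 in the 3 comparisons, and Il15 at 1.35, 1.82 and 0.47. The resolution level of Tslp stayed above both other groups in each setting tried.

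**Figure D2:**
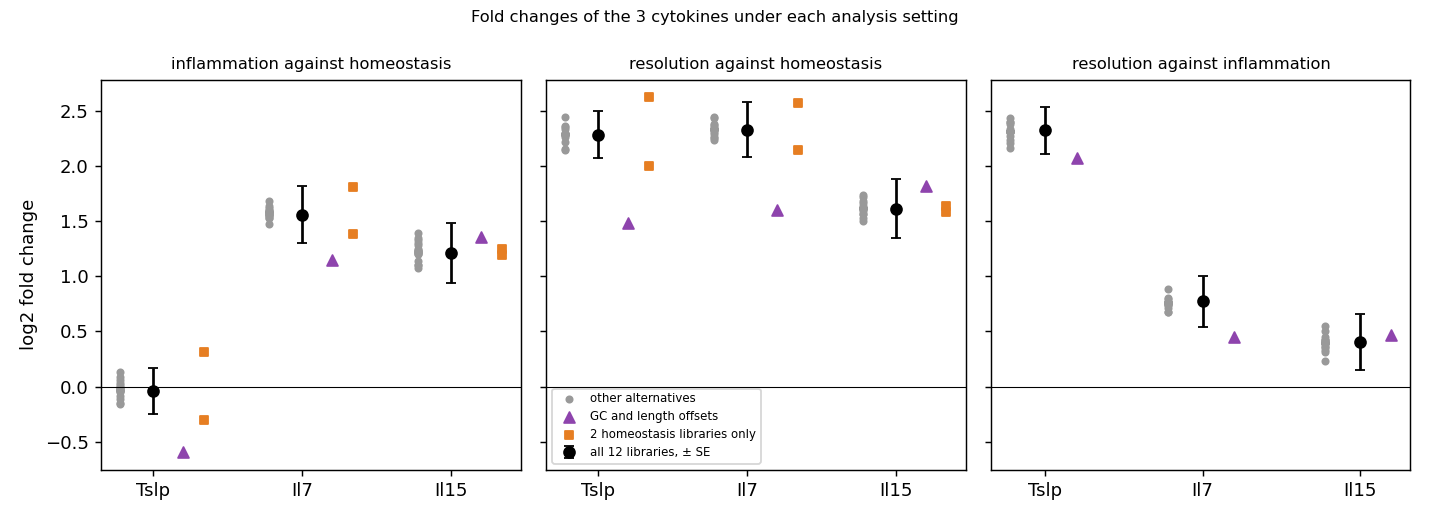
Log2 fold change (vertical axis) of Tslp, Il7 and Il15 in the 3 comparisons. Black points are the fit to all 12 libraries with bars of 1 SE, triangles are the fit with GC and length offsets, squares use only 2 of the 4 homeostasis libraries, and grey points are all other alternatives. The triangles lie below the black points for Tslp and Il7 (1.48 against 2.28 for Tslp in resolution against homeostasis) and above them for Il15 (1.82 against 1.61).

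The receptor chains and kinases that read these cytokines moved in both directions. Of the 11 genes of this list, 10 passed the expression filter. In inflammation against homeostasis 2 rose (Il7r and Crlf2) and 3 fell (Il2rg, Stat3 and Stat5a), where 37.2% of all tested genes passed, 19% higher and 18.3% lower. In resolution against homeostasis 2 rose (Jak1 and Jak2) and 4 fell (Il2rg, Il15ra, Stat3 and Stat5a), where 53.3% of tested genes passed, 27.5% higher and 25.8% lower. In resolution against inflammation 2 rose (Jak1 and Jak2) and 3 fell (Il15ra, Il2rg and Il7r), where 16.2% passed, 8.52% higher and 7.63% lower. That last background rests on 2431 genes, a number that ran from 1238 without resolution 4 to 4191 without resolution 2. The median log2 fold change of the list was -0.10, -0.10 and -0.08, against -0.01, -0.01 and 0.02 over all tested genes.

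Il15ra, which binds and presents IL-15, was lower in resolution than in both other groups. Homeostasis libraries held 8.02, 8.68, 8.49 and 7.57 CPM, inflammation libraries 7.17, 6.47, 7.54 and 8.84, and resolution libraries 3.25, 4.02, 3.63 and 4.39. All 4 resolution libraries lay below the other 8 (21.6% of tested genes did so against homeostasis and 9.9% against inflammation), and homeostasis and inflammation overlapped. The log2 fold change was -1.10 ± 0.17 against homeostasis (edgeR adjusted p = 2.6e-05) and -0.97 ± 0.17 against inflammation (adjusted p = 0.000606). Inflammation against homeostasis did not pass (-0.13 ± 0.16, adjusted p = 0.578).

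The ligand was higher in resolution and its receptor chain lower. The ratio of Il15 to Il15ra CPM was 0.149 ± 0.0423 in homeostasis, 0.376 ± 0.0783 in inflammation and 0.998 ± 0.164 in resolution. Its range was 0.107 to 0.198, 0.291 to 0.461 and 0.779 to 1.18, so no group overlapped another. The ratio contains Il15 and is given as a description. It compares CPM and not molecules, since the genes differ in length.

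**Figure D3:**
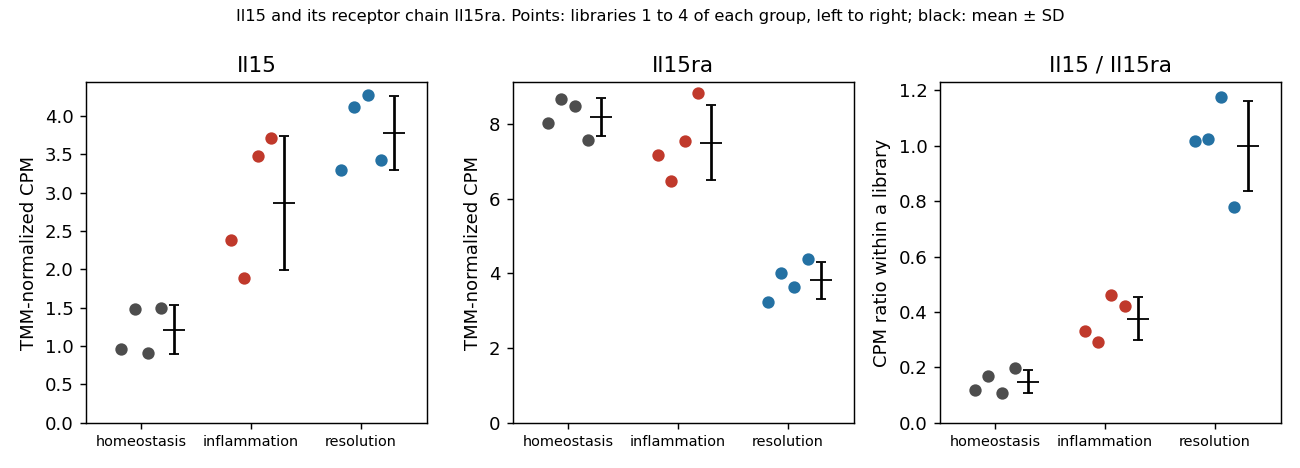
Il15 (left) and Il15ra (middle) in TMM-normalized CPM and their ratio within each library (right), on linear axes from 0. Points are libraries 1 to 4 of a group and the black bar is the mean ± SD (n = 4). Il15ra falls to 3.25 to 4.39 CPM in resolution, and the ratio takes 3 separate ranges.

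Il2rg, the common gamma chain shared by the receptors of IL-7 and IL-15, was lower in inflammation than in homeostasis and lowest in resolution. Homeostasis libraries held 6.04, 6.19, 15.6 and 15.0 CPM, inflammation libraries 5.03, 3.07, 5.00 and 5.26, and resolution libraries 1.19, 2.20, 1.36 and 1.43. No group overlapped another, and homeostasis 1 and 2 lay close to inflammation. Of tested genes, 17.3% lay wholly lower in inflammation than in homeostasis. In resolution 21.6% lay wholly lower than in homeostasis and 9.9% wholly lower than in inflammation. The log2 fold change was -1.22 ± 0.29 for inflammation (adjusted p = 0.0031) and -2.78 ± 0.33 for resolution (adjusted p = 9.4e-07), each against homeostasis, and -1.56 ± 0.33 between the doxycycline groups (adjusted p = 0.00291). Against homeostasis 1 and 2 alone, inflammation did not pass (-0.41, adjusted p = 0.235).

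Il7r, the chain shared by the receptors of IL-7 and TSLP, was close to the detection limit outside inflammation. It had 1, 2, 2 and 0 counts in homeostasis, 30, 36, 12 and 19 in inflammation and 3, 6, 4 and 0 in resolution. The inflammation libraries lay above all others, and the rest overlapped. Of tested genes, 18.1% lay wholly higher in inflammation than in homeostasis and 9.9% wholly lower in resolution than in inflammation. The log2 fold change was 4.16 ± 0.69 for inflammation against homeostasis (adjusted p = 0.000113) and -2.76 ± 0.59 for resolution against inflammation (adjusted p = 0.00353). The summed level of 12 macrophage markers moved alike, at 115 to 152 CPM in homeostasis, 648 to 706 in inflammation and 63.4 to 71.2 in resolution, and the part of such cells in the Il7r counts was not tested.

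Il2rb, the signalling chain for IL-15, did not pass the filter, with 0 to 5 counts in homeostasis, 8 to 13 in inflammation and 1 to 4 in resolution. Crlf2, the chain specific to TSLP, stood at 20.5, 12.0, 27.4 and 35.2 CPM in homeostasis, 40.3, 38.9, 33.8 and 34.1 in inflammation and 29.2, 39.6, 29.0 and 27.9 in resolution, so all groups overlapped. It rose in inflammation against homeostasis (0.63 ± 0.23, adjusted p = 0.0336), and that call was lost in 6 of 21 alternatives, with adjusted p of 0.0513 to 0.273. Resolution against homeostasis did not pass (0.41 ± 0.23, adjusted p = 0.138), though it passed in 3 alternatives.

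Jak1 and Jak2, the kinases used by the TSLP receptor, rose in resolution against both other groups. Jak2 levels were 49.1 ± 4.20, 56.9 ± 8.53 and 118 ± 27.5 CPM from homeostasis to resolution, with log2 fold changes of 1.27 ± 0.16 (adjusted p = 2.66e-06) and 1.05 ± 0.16 (adjusted p = 0.000135) for resolution against homeostasis and inflammation. Every resolution library was above all others for Jak2 while the other groups overlapped, a pattern shared by 2.76% of tested genes. Jak1 overlapped between the doxycycline groups, with resolution 2 at 384 CPM inside the inflammation range of 336 to 434. Its levels were 311 ± 60.0, 375 ± 44.5 and 598 ± 145 CPM, with log2 fold changes of 0.94 ± 0.18 (adjusted p = 0.000171) and 0.67 ± 0.17 (adjusted p = 0.0132). The second was lost in 4 of 20 alternatives, those without inflammation 1, inflammation 2, resolution 3 or resolution 4 (adjusted p of 0.0539 to 0.0699). Jak3, which pairs with the common gamma chain, passed in no comparison, at 8.78 ± 2.22, 8.30 ± 0.687 and 9.49 ± 3.33 CPM.

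Of the transcription factors, Stat3 levels were 346 ± 20.9, 266 ± 30.5 and 263 ± 24.0 CPM from homeostasis to resolution. It fell in inflammation (-0.38 ± 0.12, adjusted p = 0.0195) and in resolution (-0.39 ± 0.12, adjusted p = 0.0101) against homeostasis. The first call was lost in 6 of 21 alternatives (adjusted p of 0.0604 to 0.0881) and the second in 1, with GC and length offsets (-0.16, adjusted p = 0.143). Stat5a stood at 37.9 ± 3.11, 29.5 ± 2.30 and 28.5 ± 4.47 CPM. Its fall in inflammation (-0.36 ± 0.14, adjusted p = 0.046) was lost in 19 of 21 alternatives, and that in resolution (-0.41 ± 0.14, adjusted p = 0.0172) in 5 of 21. Stat5b passed in no comparison (38.4 ± 3.87, 33.4 ± 3.70 and 30.9 ± 4.13 CPM).

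**Figure D4:**
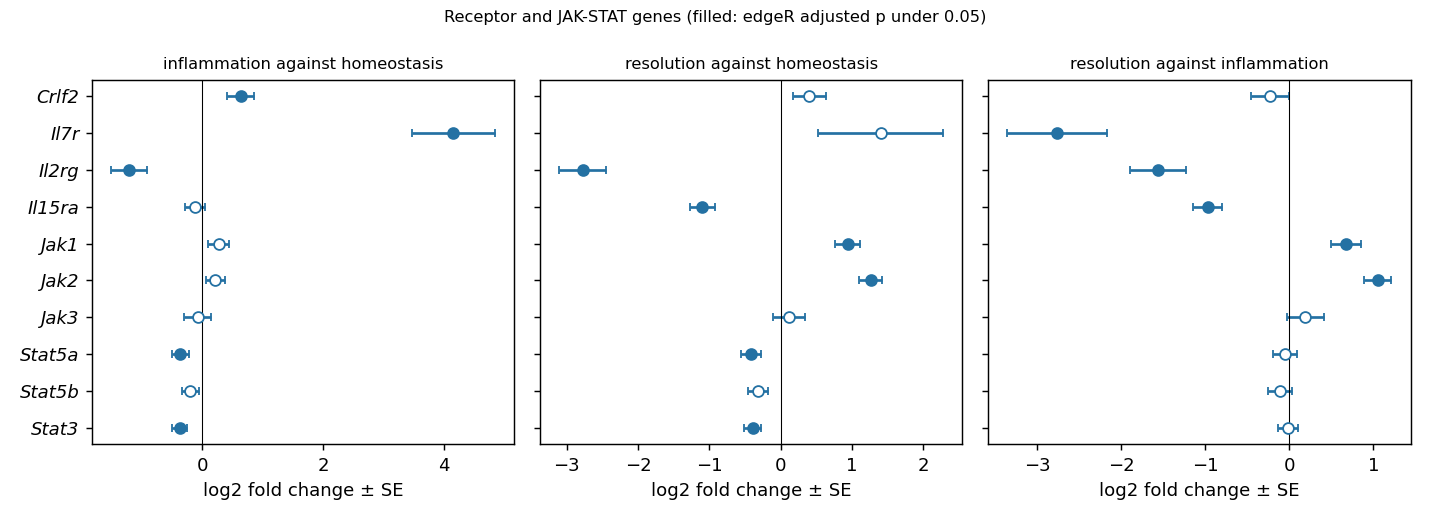
Log2 fold change with bars of 1 SE (horizontal axis) of the 10 tested receptor, kinase and STAT genes in the 3 comparisons. Filled points passed an edgeR adjusted p of 0.05 and open points did not. Il15ra and Il2rg lie to the left and Jak1 and Jak2 to the right in both comparisons of resolution, and Il7r moves to the right in inflammation (4.16) and back in resolution against inflammation (-2.76).

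Genes that STAT5 induces, and the SOCS genes that damp cytokine receptors, were counted as a list of 8, all tested. In inflammation against homeostasis 1 rose (Cish) and 1 fell (Mcl1), beside 19% higher and 18.3% lower over all tested genes. In resolution against homeostasis 1 rose (Ccnd1) and 1 fell (Socs3), beside 27.5% and 25.8%. In resolution against inflammation 2 rose (Ccnd1 and Socs2) and none fell, beside 8.52% and 7.63%. The medians were -0.05, 0.05 and -0.06. Ccnd1, the cell cycle gene cyclin D1, stood at 149 ± 8.62, 139 ± 10.3 and 199 ± 16.8 CPM and rose in resolution against both groups (0.42 ± 0.12, adjusted p = 0.00508, and 0.52 ± 0.12, adjusted p = 0.00441). The calls of Cish and Mcl1 were lost in 8 and 10 of 21 alternatives, and those of Socs3 and Socs2 in 4 of 21 and 6 of 20.

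The other cytokines of the common gamma chain family, with the related Il13, were not detected at a usable depth. Il2, Il9 and Il13 had 0 counts over all 12 libraries, which allows up to 0.086 to 0.166 CPM in a library at 3 counts of its total. Il4 had 1 count and Il21 had 9. Il7 and Il15 were thus the family members with counts in every library, and the limit covers counting error only.

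Other alarmins and survival factors of stromal cells made up a list of 17 genes, of which 16 were tested. In inflammation against homeostasis 6 rose and 1 fell, beside 19% and 18.3% over all tested genes. In resolution against homeostasis 5 rose and 4 fell, close to the 27.5% and 25.8% over all tested genes. In resolution against inflammation none rose and 4 fell, beside 8.52% and 7.63%. A fit of those groups alone with the replicate number as a block gave 2 and 5. In that fit 2585 of 14739 tested genes rose and 2224 fell. Of the 4 genes that fell without the block, Il1b lost its call in 13 of 20 alternatives. The medians were 0.71, 0.17 and -0.11. Tnfsf13b, the B cell survival factor BAFF, stood at 2.05 ± 0.344, 5.32 ± 0.798 and 6.87 ± 0.818 CPM, with log2 fold changes of 1.38 ± 0.20 (adjusted p = 2.28e-05) and 1.75 ± 0.20 (adjusted p = 6.23e-07) against homeostasis.

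Kitl, the stem cell factor that supports mast cells, stood at 4.72 ± 1.06, 13.8 ± 1.89 and 18.8 ± 4.28 CPM and rose by 1.55 ± 0.20 (adjusted p = 6.28e-06) and 2.00 ± 0.20 (adjusted p = 1.27e-07) against homeostasis. Il33, an alarmin that acts on the same innate lymphoid cells as TSLP, stood at 0.638 ± 0.141, 1.35 ± 0.287 and 1.75 ± 0.351 CPM and rose by 1.06 (adjusted p = 0.0137) and 1.42 (adjusted p = 0.000876). Il25 was not tested, with 5 counts over all libraries. Csf3, the granulocyte growth factor, went the other way from Tslp after withdrawal, at 5.40 ± 3.27, 12.0 ± 4.60 and 1.48 ± 0.539 CPM (-3.01 ± 0.40 for resolution against inflammation, adjusted p = 3.44e-05). Tnfsf11, the osteoclast factor RANKL, fell in both doxycycline groups, from 16.2 ± 2.65 to 7.44 ± 2.32 and 5.32 ± 1.60 CPM (-1.12 ± 0.23, adjusted p = 0.000894, and -1.60 ± 0.24, adjusted p = 1.56e-05).

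Genes of lymphoid stromal organisers, the fibroblasts that build lymphoid tissue with the help of IL-7, ranged widely in level. Of 17 genes, 11 were tested. Ccl21a and Cxcl13, chemokines that define such cells, had 0 counts in all libraries, and Ccl19 had 2. Other members were abundant, with Pdpn at 716 ± 117, 728 ± 99.6 and 745 ± 35.5 CPM and Ltbr at 139, 144 and 120. Neither passed in any comparison. In inflammation against homeostasis 1 rose and 4 fell, beside 19% higher and 18.3% lower over all tested genes. In resolution against homeostasis 3 rose (Cxcl16, Tnfrsf1b and Vcam1) and 4 fell, beside 27.5% and 25.8%. In resolution against inflammation 2 rose (Cxcl12 and Cxcl16) and none fell, beside 8.52% and 7.63%. In the fit with the block 4 rose and 2 fell, where 2585 of 14739 tested genes rose and 2224 fell. The calls of Cxcl12 and Cxcl16 were lost in 1 and 3 of 20 alternatives. The medians were 0.05, -0.19 and 0.03. Cxcl12 fell from 31.6 ± 5.21 CPM in homeostasis to 11.7 ± 3.12 in inflammation (-1.43 ± 0.18, adjusted p = 3.83e-06) and stood at 19.1 ± 1.44 in resolution. Nfkb2 stood at 241 ± 73.5, 125 ± 7.31 and 106 ± 22.4 CPM and fell in both comparisons with homeostasis (-0.94 ± 0.18, adjusted p = 0.000498, and -1.18 ± 0.18, adjusted p = 2.57e-05).

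Regulators of the interferon response, some with a known part in Il15 induction, were counted as a list of 19, all tested. In inflammation against homeostasis 10 rose, 2 fell (Irf1 and Irf2) and 7 did not pass, beside 19% higher and 18.3% lower over all tested genes. In resolution against homeostasis 11 rose, 1 fell (Ifnar1) and 7 did not pass, beside 27.5% and 25.8%. In resolution against inflammation 5 rose and 1 fell, beside 8.52% and 7.63%. In the fit with the block 9 rose and 1 fell, where 2585 of 14739 tested genes rose and 2224 fell. The medians were 0.58, 0.85 and 0.15. Ifih1, a sensor of double-stranded RNA, stood at 7.90 ± 3.14, 39.6 ± 4.94 and 81.7 ± 16.1 CPM, and its log2 fold changes of 2.34 ± 0.23, 3.38 ± 0.24 and 1.04 ± 0.21 all passed (adjusted p = 1.96e-07, 8.01e-10 and 0.00226). Stat2, which carries the type I interferon signal, stood at 28.7 ± 8.90, 95.4 ± 15.2 and 102 ± 17.2 CPM, and Tlr3 at 4.97 ± 1.05, 16.1 ± 2.32 and 23.8 ± 5.17. Irf1, a direct activator of the Il15 promoter, stood at 37.4, 26.4 and 35.0 CPM and fell in inflammation against homeostasis (-0.50, adjusted p = 0.00967).

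Regulators of NF-kB and AP-1, factors known for inducing Tslp, mostly fell or did not pass. Of 18 tested, 9 fell and none rose in inflammation against homeostasis, beside 18.3% lower and 19% higher over all tested genes. In resolution against homeostasis 8 fell and none rose, beside 25.8% and 27.5%. In resolution against inflammation 1 fell (Jun) and none rose, beside 7.63% and 8.52%. With GC and length offsets, 3 rose and 7 fell in resolution against homeostasis, where 4345 of 15050 tested genes rose and 3605 fell. The medians were -0.41, -0.46 and -0.02. Nfkb1 stood at 267 ± 12.4, 163 ± 22.2 and 171 ± 14.8 CPM, with log2 fold changes of -0.71 ± 0.12 (adjusted p = 0.000176) and -0.64 ± 0.12 (adjusted p = 0.000224) against homeostasis. Nfkbia, the inhibitor that NF-kB itself induces, stood at 241 ± 67.2, 134 ± 6.56 and 132 ± 11.9 CPM and fell by 0.84 and 0.87 in the same comparisons (adjusted p = 0.000403 and 0.000147). The fall of Jun in resolution against inflammation (-0.41 ± 0.13, adjusted p = 0.0405) was lost in 11 of 20 alternatives.

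Glucocorticoids are known to repress Tslp, and genes of that response were mixed. Of 8 genes, 7 were tested. In inflammation against homeostasis 1 rose and 1 fell, beside 19% higher and 18.3% lower over all tested genes. In resolution against homeostasis 2 rose and 4 fell, beside 27.5% and 25.8%. In resolution against inflammation 2 rose and 1 fell, beside 8.52% and 7.63%. In the fit with the block 2 rose and 4 fell, where 2585 of 14739 tested genes rose and 2224 fell. The medians were -0.09, -0.37 and -0.28. Nr3c1, the receptor gene, stood at 10.0 ± 2.92, 20.5 ± 3.21 and 40.2 ± 12.2 CPM and rose in all 3 comparisons (1.04, 2.02 and 0.97 on the log2 scale, adjusted p = 0.0016, 9.02e-07 and 0.00645). Fkbp5, which the receptor induces, stood at 34.3 ± 3.59, 14.1 ± 1.08 and 8.60 ± 2.07 CPM and fell by 1.28, 2.00 and 0.71 on the log2 scale (adjusted p = 7.75e-06, 1.75e-08 and 0.00803). Klf9, also of this list, went the other way in resolution, at 9.44 ± 0.697, 9.51 ± 1.40 and 18.6 ± 3.28 CPM. It rose by 0.97 against homeostasis and 0.97 against inflammation (adjusted p = 6.26e-05 and 0.000432).

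Markers of other cells that could make or read these cytokines were checked as lists. Macrophages are a known source of Il15. Of 12 macrophage markers, 11 were tested. In inflammation against homeostasis 11 rose and none fell, beside 19% higher and 18.3% lower over all tested genes. In resolution against homeostasis none rose and 6 fell, beside 27.5% and 25.8%. In resolution against inflammation none rose and 10 fell, beside 8.52% and 7.63%. Lyz2 stood at 50.9 ± 30.8, 398 ± 55.0 and 18.6 ± 2.26 CPM. The marker sum was thus highest in inflammation and lowest in resolution, where all 3 cytokine genes had their highest means. In resolution the sum was below every homeostasis library, and Il15 was 3.06-fold higher than in homeostasis. The part of macrophages in the level of Il15 was not tested in any group.

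Epithelial cells and keratinocytes are a known source of Tslp, and their 7 markers summed to 1.40 to 2.34 CPM in homeostasis, 1.60 to 2.33 in inflammation and 1.96 to 3.45 in resolution. Krt10, the only tested gene of these, stood at 1.54, 1.61 and 2.09 CPM and passed in no comparison. Epcam had 59 counts over all 12 libraries, Krt5 had 21 and Krt14 had 12. The part of such cells in the Tslp level was not tested. Markers of lymphocytes were low. T cell markers summed to at most 0.985 CPM in any library with Cd3e, Cd3g, Cd8a and Cd2 at 0, and natural killer cell markers to at most 0.607 with Ncr1 and Klrk1 at 0. Dendritic cell markers summed to 1.50 to 2.28, 1.69 to 3.00 and 1.29 to 1.54 CPM in the 3 groups. Of 6 such markers 2 were tested, and Itgax, which macrophages also carry, stood at 0.236, 1.05 and 0.226 CPM and rose in inflammation against homeostasis (2.15 ± 0.43, adjusted p = 0.00068). The other tested marker, Zbtb46, did not pass in that comparison and fell in resolution against homeostasis. Summed levels were also low for mast cell markers, at most 0.914 CPM, and endothelial markers summed to 9.79 to 17.4, 7.05 to 15.3 and 10.5 to 15.9.

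**Figure D5:**
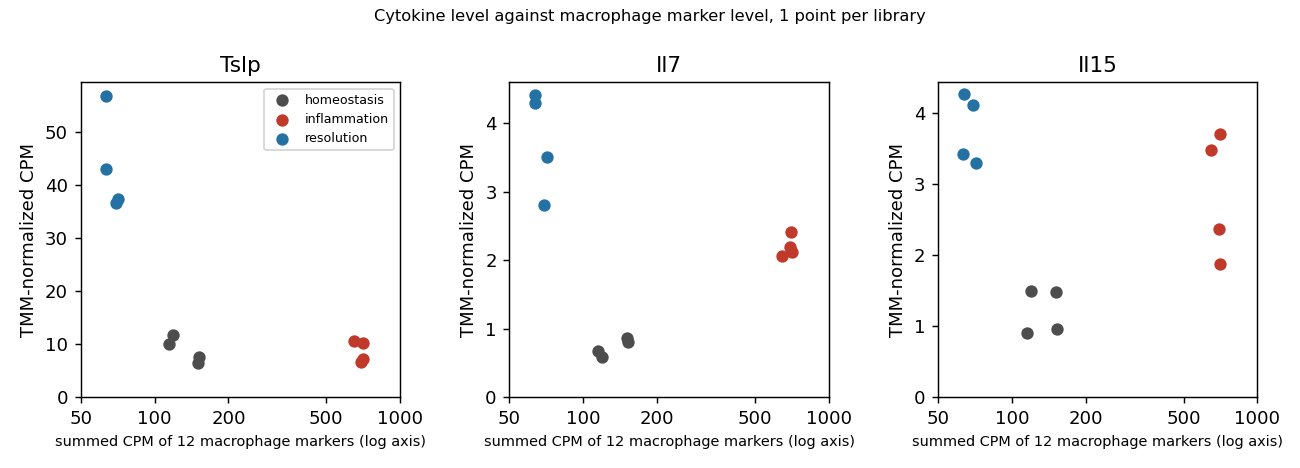
Level of Tslp, Il7 and Il15 (vertical axes, TMM-normalized CPM from 0) against the summed CPM of 12 macrophage markers (horizontal axis, logarithmic), 1 point per library. Resolution libraries sit at the left with the lowest marker sums (63.4 to 71.2 CPM) and the highest mean cytokine levels, and inflammation libraries at the right (648 to 706 CPM).

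The genes whose levels ran most like each cytokine over the 12 libraries were taken by Pearson correlation of log2 CPM, which is a description since the libraries share their groups. For Tslp these were Avpr1a, a vasopressin receptor (r = 0.966), the death receptor gene Fas (0.964), Xlr3c (0.961), the eotaxin gene Ccl11 (0.953) and Cck, the peptide hormone cholecystokinin (0.949). Ccl11 had group means of 4.53, 6.12 and 81.1 CPM, again from homeostasis to resolution, Cck at 58.4, 77.8 and 304, and Fas at 64.6, 63.5 and 118. Xlr3c belongs to a family of near-identical copies, and its counts are uncertain. Only 36 genes correlated with Tslp above 0.9. For the 5 nearest, deviations from the group means correlated with those of Tslp less closely, from r = 0.179 (Ccl11) to 0.636 (Cck).

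For Il7 the nearest genes were Gria3, a glutamate receptor subunit (r = 0.994), the ceramidase gene Asah1 (0.990), Rnf13 (0.990), Rnd3 (0.990) and Tfpi, the inhibitor of tissue factor (0.989). Gria3 stood at 29.6, 66.9 and 99.3 CPM, Tfpi at 14.1, 27.2 and 39.7, and Rnd3 at 14.8, 28.5 and 39.1. Deviations from the group means correlated with those of Il7 at r = 0.728 (Tfpi) to 0.858 (Rnd3), with Gria3 at 0.856. These genes were picked on the same libraries, so those values are no separate support. Il7 had 1109 genes above 0.9, so a place among its nearest 5 sets a gene little apart from many others.

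For Il15 the nearest were Hydin (r = 0.980), Glb1l (0.965), Layn, a hyaluronan receptor (0.959), Trim34a (0.957) and Ugt1a6a (0.957), and 161 genes were above 0.9. Hydin was scarce, at 0.0380, 0.331 and 0.817 CPM, while Layn stood at 99.3, 128 and 155. Trim34a and Ugt1a6a share sequence with close copies, and their counts are uncertain. Trim34a stood at 1.63, 7.13 and 9.46 CPM.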

How the data were processed

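Sequencing was done on poly(A) RNA with paired reads on a NovaSeq, per the labels' protocols. The authors deposited 1 table of estimated counts, unnormalized, with 1 row per gene symbol; the build was GRCm38.p3 per the submitters' processing notes. Aligner, counting tool, annotation and strand setting were not given in the sources used here. Among all deposited values, 1.43% were not whole (tolerance 0), none of them in Tslp, Il7 or Il15, and all were rounded. Of 36930 entries, 13 had no value and 42 repeats were summed.

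Counts were filtered and scaled by TMM in edgeR 4.0.16 (R 4.3.3) and fitted with its robust quasi-likelihood F test to all 12 libraries by group. Fold changes carry SE, and p-values were adjusted by Benjamini-Hochberg over 15050 genes at 0.05. The fit was tested on simulated data. The common biological coefficient of variation was 18.6%. DESeq2 1.42.0 was an alternative. Positions, lengths and GC content came from GENCODE M21.

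The cytokines and gene lists were chosen with earlier results of these data known. Named genes were all tested receptor genes, up to 4 called genes with the smallest adjusted p per other list and comparison, and the 5 nearest genes per cytokine. Others (Irf1, Il33, Lyz2, genes with few counts) were named after their values were seen. Inflammation and resolution libraries of the same number deviated together (r of 0.126 to 0.214 over genes), so a fit of those groups with the number as a block was added as an alternative; all printed folds and p-values are from the fit without it unless a block is named. In 1 of the 4 pairs another number correlated more (0.2 against 0.138). The numbers of homeostasis did not pair (-0.229 to 0.0803).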

Additional observations from a re-analysis of the deposited data

Results flagged for a closer look

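In 39 sets of 4 libraries screened, those of the 3 cytokines and their receptor and signalling genes, 6 held a library far from the other 3. Chance flags about 1 in 20 sets. None of the 6 was a set of Tslp, Il7 or Il15.

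Resolution 2 accounted for 3 of them. Its Crlf2 level was 39.6 CPM against 27.9 to 29.2 in the other resolution libraries, its Stat5a level 35.2 against 26.2 in each of the others, and its Stat3 level 299 against 248 to 256. Without resolution 2, the log2 fold changes of resolution against inflammation were 2.39 for Tslp, 0.89 for Il7 and 0.36 for Il15. Inflammation 2 held 3.07 CPM of Il2rg against 5.00 to 5.26, and 9.33 CPM of Jak3 against 7.90 to 8.00. Homeostasis 2 held 377 CPM of Stat3 against 334 to 337.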

How the results depend on the processing

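Of 186 fold changes of the 3 cytokines under the alternatives, 179 moved by less than 1 pooled SD of the log2 level between replicates and 7 moved further, and none of these 7 changed sign. With GC and length offsets, available for 90.6% of tested genes, Tslp gave -0.59 and 1.48 against homeostasis, and Il7 gave 1.14, 1.60 and 0.45. With homeostasis 1 and 2 only, Il7 in inflammation gave 1.39, and with homeostasis 3 and 4 only 1.81. The cause was not tested. Leaving out single libraries gave -0.15 to 0.13, 2.14 to 2.44 and 2.16 to 2.43 for Tslp, 1.48 to 1.68, 2.23 to 2.44 and 0.67 to 0.89 for Il7, and 1.07 to 1.39, 1.50 to 1.74 and 0.23 to 0.55 for Il15.

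Genes called in resolution against inflammation numbered 2431, and 1238 (without resolution 4) to 4191 (without resolution 2) when single libraries were left out. A fit of these groups alone with the replicate block, chosen after seeing the data, called 4809, against 3067 without the block and 1898 with the block over all 12 libraries. With that block on those groups the alarmin list gave 7 calls, the organiser list 6, the interferon list 10 and the glucocorticoid list 6. With the replicate block over 12 libraries, the receptor list gave 3 calls and the STAT5 list 1 in inflammation against homeostasis, and the NF-kB list 0 in resolution against inflammation. That fit called 2641 genes higher and 2414 lower of 15050 in inflammation against homeostasis.

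Other list counts that moved were, for inflammation against homeostasis, 3 receptor calls with homeostasis 1 and 2 only, with homeostasis 3 and 4 only and with upper-quartile factors, 1 STAT5 call with GC offsets and with upper-quartile factors, 0 with homeostasis 3 and 4 only and with only those 2 groups, and 11 alarmin calls with homeostasis 1 and 2 only. For resolution against homeostasis they were 4 STAT5 calls with homeostasis 3 and 4 only and 4 organiser calls with GC offsets, and against inflammation 1 STAT5 call with GC offsets. Over all tested genes, calls in inflammation against homeostasis were 2791 higher and 2707 lower of 15733 with homeostasis 1 and 2 only. With homeostasis 3 and 4 only they were 2793 and 2288 of 15716, and with upper-quartile factors 3297 and 2151 of 15050. GC offsets gave 3317 and 3089, and only those 2 groups 2889 and 2358 of 14505. In resolution against homeostasis, calls were 4309 and 3961 with homeostasis 3 and 4 only and 4345 and 3605 with GC offsets. In resolution against inflammation they were 1166 and 1188 of 15050 with GC offsets. Leaving out single libraries gave 2 to 5 receptor and 0 to 2 STAT5 calls in inflammation against homeostasis, 1 to 4 STAT5 calls in resolution against homeostasis, and, against inflammation, 1 to 2 STAT5, 0 to 5 organiser, 3 to 7 interferon, 0 to 2 NF-kB and 3 to 6 glucocorticoid calls. Over all tested genes (15247 to 15371), these fits called 2308 to 3080 higher and 2086 to 2996 lower in inflammation against homeostasis. For resolution against homeostasis the ranges were 3720 to 4296 and 3344 to 4214, and against inflammation 474 to 2360 and 764 to 1831. Depth limits Il7 and Il15 in homeostasis, with 12 to 48 counts per library.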
